A study of Mus musculus with 24 samples.

Results

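The genes *Zfp521*, *Kcnc2*, *Nrbp2*, *Cped1*, *Msc* and *Tcerg1l* were followed across mouse embryonic stem cell (ESC) clones in which the Tet genes had been deleted. They are 6 of the 22926 gene symbols counted, and they were picked for their rise in *Tet2*-/- cells over wild-type (WT) cells, *Zfp521*, *Kcnc2* and *Nrbp2* in undifferentiated cells at day 0 (D0) and *Cped1*, *Msc* and *Tcerg1l* at day 6 (D6) after leukemia inhibitory factor (LIF) was withdrawn. RNA-seq was performed on 24 libraries, 12 at each day, and each library was made from 1 clone. The clones came from 1 feeder-free, 129/SVj-derived parental clone that carries eGFP at *Pou5f1* (Oct4). The Tet knockout clones were edited with CRISPR/Cas9. Every group, WT included, therefore shares the eGFP knock-in, and every knockout group rests on a few clones of that parental line, so that p-values measure the spread between clones. At each day there were 3 WT clones, 3 *Tet1*-/- clones, 2 *Tet2*-/- clones, 2 double knockout clones (DKO, *Tet1*-/- and *Tet2*-/-) and 2 triple knockout clones (TKO, *Tet1*-/-, *Tet2*-/- and *Tet3*-/-). D0 cells were grown on gelatin with LIF and D6 cells had spent 6 days without it. Clones are named by their replicate number in the labels, which is the same at both days for *Tet1*-/-, *Tet2*-/- and TKO, while numbers 1 and 2 are exchanged between the days in WT and in DKO. Replicate 2 of *Tet1*-/- is a different clone at each day, and every other clone was sequenced at both days. Where WT or DKO values of D6 are listed, they follow the clone order of D0.

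Tet proteins oxidise methylated cytosine, mostly in CpG dinucleotides, to 5-hydroxymethylcytosine and further products, which leads to loss of the methyl mark. LIF signalling holds mouse ESCs in the pluripotent state, and its removal lets them differentiate toward the germ layers. *Zfp521* encodes a zinc finger factor that binds early B cell factors such as Ebf1 and promotes early neural fate, and *Msc* encodes musculin (MyoR), a basic helix-loop-helix (bHLH) repressor that dimerises with E proteins and opposes myogenic bHLH factors. *Tcerg1l* encodes a protein with a predicted role in transcription elongation. *Kcnc2* encodes Kv3.2, a voltage-gated potassium channel of fast-spiking neurons, *Nrbp2* a pseudokinase of the nuclear receptor binding protein family, and *Cped1* a protein with cadherin-like and PC-esterase domains whose gene lies beside *Wnt16*.

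Levels are given as CPM, read counts relative to library size, after TMM scaling over all 24 libraries. A gene was called different where edgeR's quasi-likelihood test gave a Benjamini-Hochberg adjusted p-value under 0.05 over all genes tested and the change exceeded 2-fold. Libraries held 21729346 to 37290208 counts at D0 and 18400463 to 34219640 at D6, and 3 counts, the upper limit behind a gene with no reads, correspond to 0.0814 to 0.151 CPM (counting error only). All 6 genes passed the filter on low counts in the D0 fit (14456 genes), the D6 fit (15435) and the fit over both days (15639). Pluripotency markers were present at D0 in every library, where the summed level of *Pou5f1*, *Nanog*, *Sox2*, *Zfp42*, *Esrrb* and *Klf4* was 4025 to 4447 CPM over all groups. At D6 that sum was 662 to 1508 CPM in WT and 1945 to 2114 CPM in *Tet2*-/-. *Tet2* RNA itself stood at 91.8 ± 3.40 CPM (SD, n = 3) in WT and 22.1 ± 1.62 (n = 2) in *Tet2*-/- at D0, and at 13.7 ± 1.98 and 16.3 ± 0.522 CPM at D6. Most edits that the paper lists are small insertions or deletions, which can leave a countable transcript. For each *Tet2*-/- clone it lists a single allele and does not exclude a larger edit on the other. These RNA levels therefore do not check the genotype labels.

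The sequence that defines the *Tet2*-/- clones is the guide RNA used to cut *Tet2*, which is shown here because every comparison with these clones depends on that edit. It is printed as the cloning oligo, with the 4-base overhang in lower case and the 20-base guide in capitals.
Tet2 guide oligo: caccGAAAGTGCCAACAGATATCC
The guide has 1 exact match on chromosome 3 of mm9, chr3:133148620-133148639 on the minus strand, within a coding exon of *Tet2* (133126643 to 133207354, minus strand), followed by the motif AGG that Cas9 requires.

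Promoter sequences are shown because CpG is the dinucleotide on which Tet proteins act. RefSeq windows (GRCm38.p6) were matched for 3 of the 6 genes, *Kcnc2* (4 start sites), *Cped1* and *Tcerg1l*, and those of *Zfp521*, *Nrbp2* and *Msc* were not used here. Printed are the 250 bases before the start, 5′ to 3′ on the strand of the gene, with each CpG in capitals.
Kcnc2: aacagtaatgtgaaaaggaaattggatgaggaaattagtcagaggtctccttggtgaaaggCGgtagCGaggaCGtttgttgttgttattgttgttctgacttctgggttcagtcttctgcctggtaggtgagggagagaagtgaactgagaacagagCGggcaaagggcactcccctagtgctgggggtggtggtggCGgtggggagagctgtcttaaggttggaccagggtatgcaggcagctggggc
Cped1: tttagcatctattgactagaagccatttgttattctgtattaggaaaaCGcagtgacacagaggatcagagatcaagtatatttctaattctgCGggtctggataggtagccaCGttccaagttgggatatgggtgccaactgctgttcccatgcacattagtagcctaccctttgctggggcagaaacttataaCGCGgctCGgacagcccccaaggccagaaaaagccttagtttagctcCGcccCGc
Tcerg1l: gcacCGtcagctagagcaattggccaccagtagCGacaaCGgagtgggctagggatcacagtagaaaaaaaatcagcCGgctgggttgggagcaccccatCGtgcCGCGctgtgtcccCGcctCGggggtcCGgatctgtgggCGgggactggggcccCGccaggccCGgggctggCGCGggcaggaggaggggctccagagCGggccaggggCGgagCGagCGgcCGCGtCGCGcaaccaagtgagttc
The *Kcnc2* window (chr10:112270871-112271120, plus strand) held 5 CpG, and the other *Kcnc2* windows held 2, 4 and 5. The *Cped1* window (chr6:21985660-21985909, plus strand) held 8 CpG and that of *Tcerg1l* (chr7:138397731-138397980, minus strand) held 23. Over all 32851 windows of the table the median was 6 CpG, and 55.6%, 43.0% and 13.3% of windows held at least as many as *Kcnc2*, *Cped1* and *Tcerg1l*. GC content was 52.8%, 48.0% and 69.6%. DNA methylation of the clones, which the study profiled at D0 by reduced representation bisulfite sequencing, was not analysed here, and the CpG counts are a description of the windows only.

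In mm9, the build to which the authors mapped the reads, *Zfp521* lies on chromosome 18 (13845522 to 14131242, minus strand), *Msc* on chromosome 1 (14743427 to 14746047, minus) and *Tcerg1l* on chromosome 7 (145400657 to 145589413, minus). *Kcnc2* lies on chromosome 10 (111708179 to 111903360, plus), *Nrbp2* on chromosome 15 (75916025 to 75920443, minus) and *Cped1* on chromosome 6 (21935916 to 22206404, plus). All 6 are protein-coding genes on different chromosomes, and each has 1 line in the count tables. *Gm17429*, a lincRNA on the opposite strand, overlaps exons of *Cped1*, and *Gm9947*, also on the opposite strand, overlaps exons of *Msc*. Whether the counting used strand is not given in the sources used here, so reads of these pairs cannot be told apart.

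**Figure D1:**
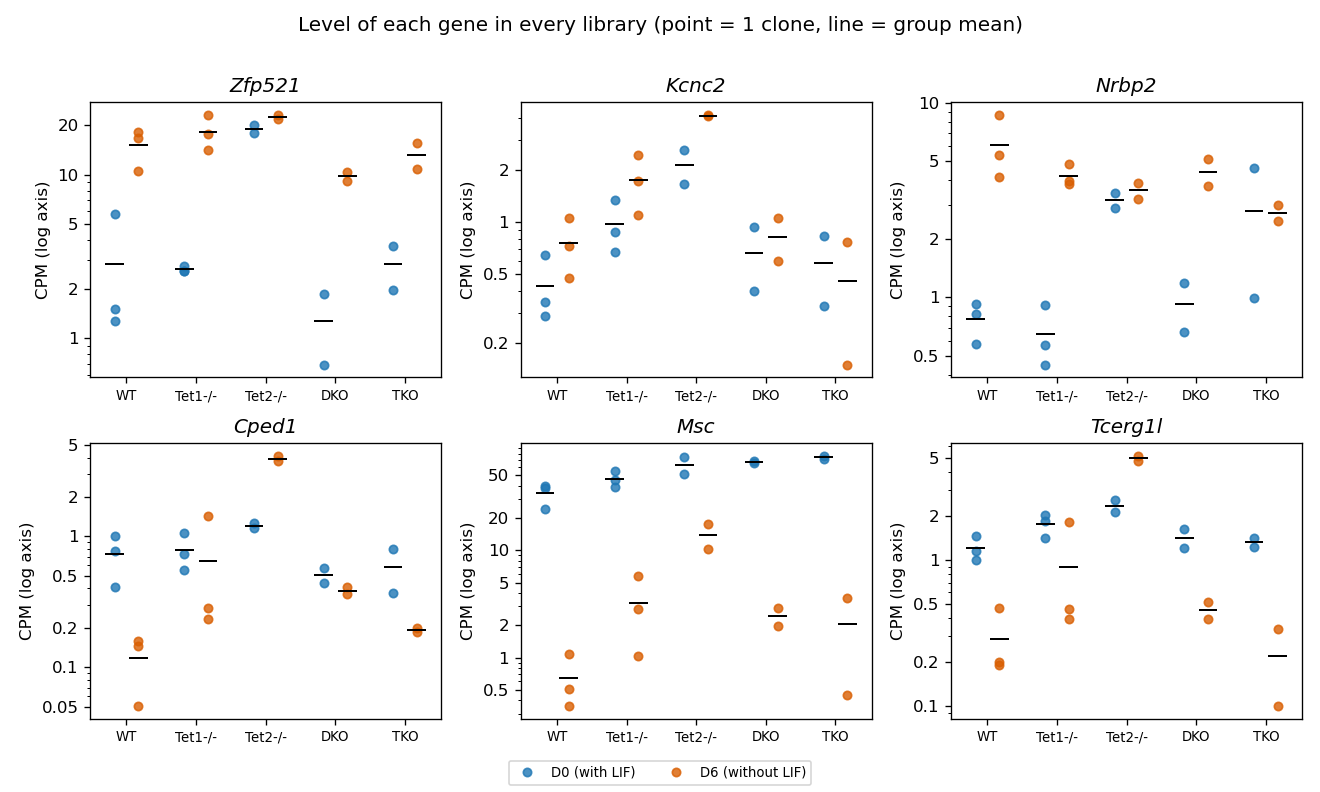
CPM of each gene on a log axis in all 24 libraries, by genotype, with D0 in blue and D6 in orange; points are clones and black lines group means. *Zfp521* and *Nrbp2* stood high in *Tet2*-/- already at D0, while *Cped1*, *Msc* and *Tcerg1l* of *Tet2*-/- stood apart at D6, where the lower *Tet2*-/- clone had 3.74, 10.4 and 4.78 CPM. These are the days on which the genes were picked.

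The first comparison set *Tet2*-/- against WT. On the day on which a gene was picked, its fold change is a description of how it was picked and is given without a test. The same holds for the order of *Tet2*-/- and WT libraries on that day. The other day was not used, but its *Tet2*-/- and WT libraries come from the same clones, so the days are not independent. Where libraries are said to lie above, below or apart from others, the share of all genes that do so was not counted. Among the 118 genes called higher at D0, *Zfp521* ranked 1, *Kcnc2* 2 and *Nrbp2* 5 by log2 fold change (2.71, 2.3 and 2.00), with *Sgcz* (2.2) and *Dclk1* (2.19) between *Kcnc2* and *Nrbp2*, and *Fam189a2* (1.99) just below. Among the 742 called higher at D6, *Cped1* ranked 1 (4.91), *Msc* 3 (4.36) and *Tcerg1l* 7 (4.06), with *Dgkb*, *Gm9926* and *Gm19784* among those between them and *Gbx1* (3.78) just below. The share of all genes called higher was 0.816% at D0 and 4.81% at D6, and nothing is read from it for genes picked by that contrast. The listed genes are thus among the largest rises but not the 3 largest at either day.

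*Zfp521*, the neural zinc finger factor, stood at similar levels in *Tet2*-/- cells before and after LIF withdrawal. At D0 it stood at 20.0 and 18.0 CPM in the *Tet2*-/- clones and at 5.78, 1.28 and 1.51 CPM in WT replicates 1, 2 and 3. Both *Tet2*-/- clones lay above all 10 other D0 libraries, of which WT replicate 1 was the highest. This order uses the values that picked the gene and is a description only. At D6 the *Tet2*-/- clones had 23.2 and 22.0 CPM and WT had 18.3, 10.5 and 16.8. The log2 fold change on that day, which the choice did not use, was 0.56 (SE 0.26, adjusted p = 0.128, edgeR), not called. *Tet1*-/- replicate 2 reached 23.2 CPM at D6, so the *Tet2*-/- clones no longer stood above every other library.

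*Msc*, the bHLH repressor, was abundant in undifferentiated cells of every genotype. At D0 it had 39.7, 24.3 and 38.5 CPM in WT and 51.8 and 74.2 CPM in *Tet2*-/-, a log2 fold change of 0.86 (SE 0.20, adjusted p = 0.0258, edgeR) that lies under the 2-fold limit. The *Tet2*-/- clones lay above the WT clones but within the range of the other knockouts, whose highest library, TKO replicate 2, had 75.9 CPM. At D6 WT retained 0.353, 1.09 and 0.509 CPM, whereas *Tet2*-/- had 10.4 and 17.4 CPM. The highest of the other D6 libraries was *Tet1*-/- replicate 3 with 5.75 CPM, below both *Tet2*-/- clones, whose D6 values picked the gene.

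*Tcerg1l*, the predicted elongation factor gene, was low in every library. At D0 WT clones had 1.45, 1.15 and 0.993 CPM and *Tet2*-/- clones 2.13 and 2.57, again a change under 2-fold with an adjusted p-value under the limit (log2 fold change 0.95, SE 0.26, adjusted p = 0.0419, edgeR). Without WT replicate 1 of D0 the change was 1.11 (adjusted p = 0.0368) and passed both limits. Both *Tet2*-/- clones exceeded all 10 other D0 libraries, the nearest being *Tet1*-/- replicate 1 with 2.03 CPM. That value came from 51 reads and the lower *Tet2*-/- value from 50, so the gap is small beside counting error. At D6 *Tet2*-/- clones had 4.78 and 5.16 CPM and WT clones 0.202, 0.472 and 0.191, from 4, 13 and 6 reads.

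*Kcnc2*, the potassium channel, is the 1 member called higher in *Tet2*-/- on a day that the choice did not use. The D6 libraries come from the same *Tet2*-/- and WT clones whose D0 values picked the gene, so the call is not independent of the choice. At D6 the *Tet2*-/- clones had 4.09 and 4.18 CPM (142 and 120 reads) and the WT clones had 1.06, 0.726 and 0.478 CPM (21, 20 and 15 reads). The *Tet2*-/- clones lay above all 10 other D6 libraries, with *Tet1*-/- replicate 3 next at 2.43 CPM. The log2 fold change was 2.46 (SE 0.52, adjusted p = 0.00970, edgeR), a level 5.50-fold that of WT. Of the 3 D0 genes, *Kcnc2* was called higher, none was called lower, and 4.81% of all genes were called higher and 9.45% lower at D6. DESeq2 called *Kcnc2* alone of these genes as well. With either *Tet2*-/- clone left out, the change stayed near its value (2.44 without replicate 2 and 2.47 without replicate 1) but the adjusted p-value rose to 0.0773 and 0.0627. At D0, the day of choice, *Kcnc2* had 1.66 and 2.63 CPM in *Tet2*-/- and 0.646, 0.288 and 0.345 CPM in WT.

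Markers of other cell types moved with the D6 difference. In *Tet2*-/- against WT, 3 of 3 tested neuroectoderm markers (*Sox1*, *Pax6* and *Hes5*, of 4 listed) and 1 of 6 ESC markers (*Pou5f1*) were called higher. In a longer neuroectoderm list, given below, 4 of 10 tested genes were called higher. *Nes*, *Otx2* and *Zic2* of that list had log2 fold changes below 0 and were not called. Called lower were 4 of 4 mesoderm, 4 of 4 endoderm, 3 of 3 trophectoderm, 2 of 3 tested skeletal muscle and 2 of 6 fibroblast markers. At D0 the summed neuroectoderm level was 6.36 to 9.50 CPM in *Tet2*-/- and 3.05 to 5.57 CPM in WT. Mean *Sox1* went from 7.40 CPM at D0 to 8.18 CPM at D6 in *Tet2*-/- and from 4.08 to 1.55 CPM in WT. At D6 the summed neuroectoderm level was 11.3 to 12.6 CPM in *Tet2*-/- and 2.04 to 2.32 CPM in WT, with *Neurog2* at 0 counts in both. The summed mesoderm level was 64.8 to 99.4 and 213 to 550 CPM, the endoderm level 9.45 to 10.9 and 56.2 to 260 CPM, the trophectoderm level 56.3 to 80.3 and 100.5 to 277 CPM and the muscle level 6.66 to 7.77 and 34.6 to 57.9 CPM. *Eomes*, which is in both the mesoderm and the trophectoderm list, makes up nearly all of the trophectoderm sum (55.6 to 79.9 CPM in *Tet2*-/- and 96.7 to 261 CPM in WT), whereas *Cdx2* had 0.432 to 0.697 and 3.38 to 26.0 CPM and *Elf5* was at 0 counts in *Tet2*-/-. Fibroblast markers, which feeder cells would carry, summed to 58.6 to 60.5 CPM in *Tet2*-/- and 29.4 to 35.9 CPM in WT at D0 with *Dcn* and *Postn* at 0 counts in both, and to 14.4 to 16.7 and 77.9 to 304 CPM at D6. The D0 sum is nearly all *Thy1* (57.8 ± 1.26 CPM in *Tet2*-/- and 30.2 ± 3.73 in WT), while *Col1a1* (1.46 ± 0.129 and 1.93 ± 0.354 CPM) and *Col1a2* (0.266 ± 0.0459 and 0.685 ± 0.315 CPM) were lower on average in *Tet2*-/-, and no fibroblast marker was called at D0. The part of cell composition in the D6 values of the 6 genes was not tested, and in bulk RNA fewer cells of a type and less RNA per cell cannot be told apart.

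*Nrbp2*, the pseudokinase, behaved like *Zfp521* at D0 and lay on the other side of WT at D6. At D0 it had 3.46 and 2.86 CPM in *Tet2*-/- and 0.929, 0.576 and 0.821 CPM in WT. Another library, TKO replicate 1, exceeded both with 4.60 CPM. At D6 *Tet2*-/- clones had 3.89 and 3.21 CPM and WT clones 8.67, 4.17 and 5.38, a log2 fold change of -0.79 (SE 0.31, adjusted p = 0.0786, edgeR) that was not called. Every WT clone lay above both *Tet2*-/- clones on that day.

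*Cped1* was expressed near the limit of detection in differentiated WT cells. At D0 WT clones had 1.01, 0.412 and 0.777 CPM and *Tet2*-/- clones 1.15 and 1.26, with a log2 fold change of 0.70 (SE 0.40, adjusted p = 0.271, edgeR). The groups did not overlap, and the difference was not called. At D6 the WT clones had 1, 4 and 5 reads (0.0504, 0.145 and 0.159 CPM), and the *Tet2*-/- clones had 130 and 118 reads (3.74 and 4.11 CPM). Both *Tet2*-/- clones lay above all other libraries at both days, with *Tet1*-/- replicate 3 nearest at each (1.06 CPM at D0 and 1.42 CPM at D6). At D0 this was 24 reads beside 27 in the lower *Tet2*-/- clone, a gap small beside counting error. The D6 order uses the *Tet2*-/- values that picked the gene. Of the 3 D6 genes none was called at D0 by edgeR or by DESeq2, 2 had an unadjusted p-value under 0.05, as did 4218 of all 14456 genes, and 0.816% of all genes were called higher and 2.37% lower.

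**Figure D2:**
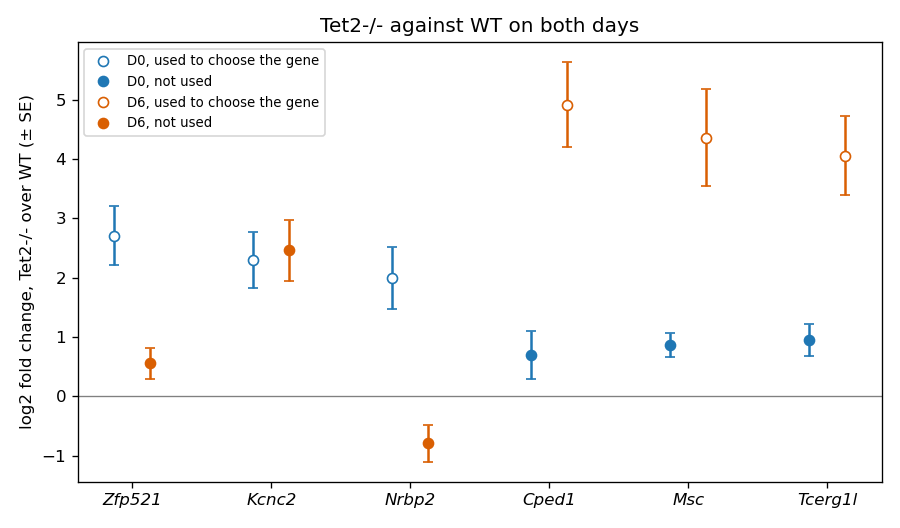
Log2 fold change of *Tet2*-/- over WT with its SE for each gene at D0 (blue) and D6 (orange), open symbols for the day on which the gene was picked and filled symbols for the other day. Among the filled symbols *Kcnc2* at D6 (2.46) is the highest and *Nrbp2* at D6 (-0.79) is the only one below 0.

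The other knockouts were compared with the same WT libraries on the day that the choice did not use. Of the D6 genes at D0, *Msc* was called higher in TKO, with 71.0 and 75.9 CPM against 39.7, 24.3 and 38.5 CPM in WT (log2 fold change 1.10, SE 0.20, adjusted p = 0.00994, edgeR), a call that 1.03% of all genes received in that direction and 2.12% in the other. Without WT replicate 2, the lowest, the change was 0.91 (adjusted p = 0.0205), under the 2-fold limit, and with the TKO and WT libraries fitted alone the adjusted p-value was 0.124. In DKO *Msc* had 68.3 and 65.3 CPM and a log2 fold change of 0.95 (SE 0.21, adjusted p = 0.0844, edgeR). No *Msc* value of any knockout at D0 fell below the 39.2 CPM of *Tet1*-/- replicate 2. WT replicates 1 and 3 were close to that value (39.7 and 38.5 CPM), and only WT replicate 2 was far below it (24.3 CPM). *Cped1* and *Tcerg1l* at D0 were not called in *Tet1*-/-, DKO or TKO by edgeR or DESeq2, with log2 fold changes from -0.53 to 0.53, and neither had an unadjusted p-value under 0.05. In *Tet1*-/- *Msc* at D0 had a change of 0.42 (adjusted p = 0.378, edgeR) with an unadjusted p-value under 0.05. The shares of all genes called at D0 were 0% higher and 0.00692% lower in *Tet1*-/- and 0.0138% higher and 0.0208% lower in DKO. The marker *Eomes* was called higher in TKO at D0, and its part in the *Msc* value was not tested. Of the D0 genes at D6, none was called by edgeR in *Tet1*-/-, DKO or TKO, where 0% of all genes were called in either direction. *Kcnc2* in *Tet1*-/- (1.25, SE 0.49, adjusted p = 0.364), *Zfp521* in DKO (-0.63, adjusted p = 0.317) and *Nrbp2* in TKO (-1.14, SE 0.32, adjusted p = 0.0861) had unadjusted p-values under 0.05, and DESeq2 called *Nrbp2* in TKO lower. Set directly against *Tet1*-/-, *Tet2*-/- had no call on the unused day: *Kcnc2* at D6 changed by 1.21 (SE 0.49, adjusted p = 0.131, edgeR) and was the 1 gene of 6 with an unadjusted p-value under 0.05, DESeq2 called none, and of all genes 1.87% were called higher and 4.48% lower at D6, and 2.64% and 3.55% at D0. A difference of *Kcnc2* between *Tet2*-/- and *Tet1*-/- at D6 was therefore not shown, although the clones did not overlap.

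DKO and TKO clones lack *Tet2* as well, and the next comparison, chosen after the data were seen, set them against *Tet2*-/-. At D6 *Kcnc2* had 1.05 and 0.597 CPM in DKO and 0.769 and 0.150 CPM in TKO. These lay 4.97-fold (log2 fold change -2.31, SE 0.58, adjusted p = 0.0254, edgeR) and 8.15-fold (-3.03, SE 0.62, adjusted p = 0.0144) below *Tet2*-/-. The lowest TKO value, in replicate 2, rested on 3 reads. *Zfp521* at D6, with 10.4 and 9.17 CPM in DKO, was 2.29-fold lower than in *Tet2*-/- (-1.19, SE 0.30, adjusted p = 0.0238, edgeR). In TKO it had 10.8 and 15.7 CPM and was not called (-0.75, adjusted p = 0.103). All 4 combined-knockout libraries lay below both *Tet2*-/- libraries for *Kcnc2* and *Zfp521*. Of all genes 3.13% were called lower in DKO and 2.63% in TKO than in *Tet2*-/-, and 6.37% and 6.01% higher. Each of these calls was lost when either *Tet2*-/- clone was left out, with adjusted p-values from 0.0748 to 0.129, and the DKO calls also without either DKO clone (0.0799 to 0.192). Neuroectoderm markers moved with these values, with 2 of 3 tested called lower in DKO (*Hes5* and *Sox1*) and 3 of 3 in TKO (*Pax6* as well). Markers of other types moved the other way: 2 of 4 mesoderm markers (*Mixl1* and *T*), 2 of 6 fibroblast markers and 1 of 3 tested muscle markers were called higher in each, 2 of 4 endoderm markers in DKO and 2 of 3 trophectoderm markers in TKO. The ESC marker *Pou5f1* was called lower in TKO. The summed neuroectoderm level at D6 was 1.28 to 3.12 CPM in DKO and 1.30 to 1.88 CPM in TKO beside 11.3 to 12.6 CPM in *Tet2*-/-, and the part of these markers in the result was not tested. The *Kcnc2* call in TKO was lost without TKO replicate 2 (-2.38, adjusted p = 0.0747). Without TKO replicate 1 at D0, 5 calls were made in place of 3. At D0 no D6 gene was called in DKO or TKO against *Tet2*-/- by edgeR or DESeq2, where 3.16% and 2.11% of genes were called lower and 3.20% and 2.08% higher. *Cped1* (-1.22 and -1.03) and *Tcerg1l* (-0.74 and -0.81) each had unadjusted p-values under 0.05 in both.

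Loss of *Tet2* in cells that already lack *Tet1* was read from DKO against *Tet1*-/-, none of whose libraries the choice used. No member was called at D0 or D6 by edgeR or DESeq2, and edgeR called 0% of all genes. *Msc* at D0 (log2 fold change 0.53, adjusted p = 0.659, edgeR) and *Zfp521* at D6 (-0.90, adjusted p = 0.860) had unadjusted p-values under 0.05. *Zfp521* had 1.87 and 0.689 CPM in DKO at D0 beside 2.59, 2.58 and 2.78 CPM in *Tet1*-/-, so every DKO value lay below every *Tet1*-/- value, the reverse of the *Tet2*-/- difference from WT. The D6 levels of 10.4 and 9.17 CPM in DKO and 14.1, 23.2 and 17.6 CPM in *Tet1*-/- did not overlap either. Over the 6 genes the log2 fold changes ran from -1.02 to 0.53 at D0 and from -1.10 to 0.08 at D6, with medians of -0.43 and -0.82 beside -0.01 and -0.02 over all genes.

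Of the 6 genes 1 was called in TKO against *Tet1*-/-. *Nrbp2* at D0 had 4.60 and 0.989 CPM in TKO replicates 1 and 2 and 0.915, 0.451 and 0.573 CPM in *Tet1*-/- (log2 fold change 2.11, SE 0.53, adjusted p = 0.0250, edgeR). In the same direction 1.43% of all genes were called, and 2.57% lower. The value rests on TKO replicate 1: without it the change was 0.62 (adjusted p = 0.344). The call was also lost without *Tet1*-/- replicate 2 (1.91, adjusted p = 0.103) or replicate 3 (2.04, adjusted p = 0.0779). *Msc* at D0 changed by 0.68 (SE 0.20, adjusted p = 0.0469), under 2-fold. At D6 no member and 0% of all genes were called by edgeR, DESeq2 called no member, and *Kcnc2* (-1.81) and *Tcerg1l* (-1.89) had unadjusted p-values under 0.05 with adjusted p-values of 0.215 and 0.262. Without TKO replicate 1 at D6, 1 more member was called, for a total of 2 over both days.

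TKO against DKO, which adds the loss of *Tet3*, gave no call among the 6 genes at either day by edgeR or DESeq2. At D0 0.235% of all genes were called higher and 0.678% lower, and at D6 0%. *Nrbp2* at D0 (log2 fold change 1.61, SE 0.59, adjusted p = 0.164, edgeR) was the 1 member with an unadjusted p-value under 0.05. Without TKO replicate 2 at D0, 1 member was called. The comparisons among *Tet1*-/-, DKO and TKO share libraries, so their values are not independent.

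**Figure D3:**
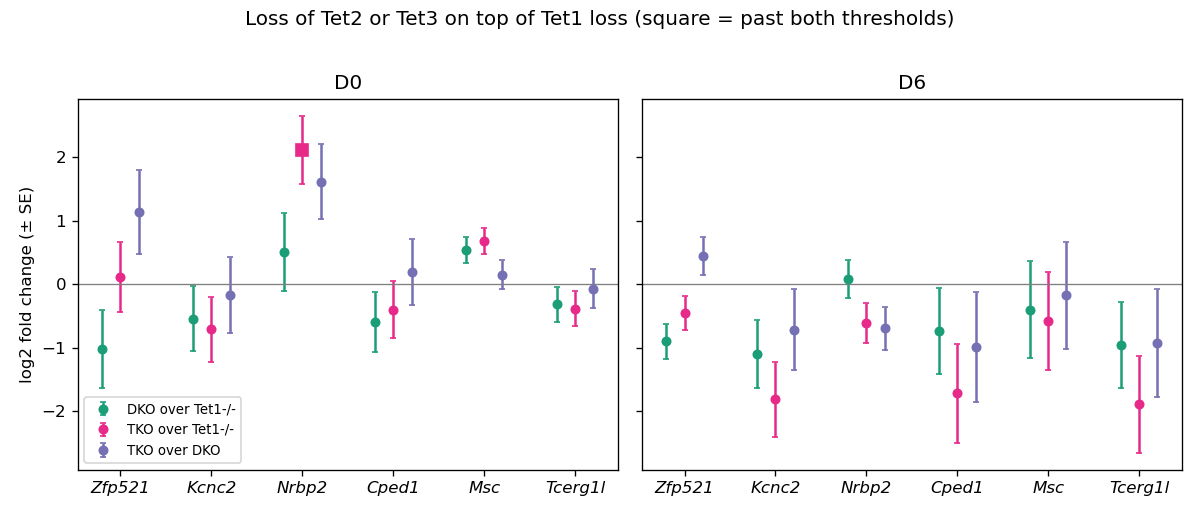
Log2 fold changes with SE for DKO over *Tet1*-/- (green), TKO over *Tet1*-/- (pink) and TKO over DKO (purple) at D0 and D6; squares mark calls. The single square is *Nrbp2* in TKO over *Tet1*-/- at D0 (2.11), and the D6 values of *Kcnc2*, *Cped1* and *Tcerg1l* all lie below 0.

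After LIF withdrawal *Zfp521* rose and *Msc* fell in every tested genotype. The change was tested within *Tet1*-/-, DKO and TKO, whose libraries the choice did not use, and is given without a test for WT and *Tet2*-/-. Cell type markers moved over the same days: for *Tet1*-/-, DKO and TKO, 6, 5 and 5 of 6 ESC markers were called lower, and 4, 4 and 3 of 4 mesoderm and 4, 4 and 1 of 4 endoderm markers were called higher. The ESC sum at D6 was 787 to 1493, 1125 to 1137 and 1482 to 1567 CPM in these genotypes, and the part of the markers in the changes of the 6 genes was not tested. *Zfp521* rose in all 3 tested genotypes, with log2 fold changes of 2.79 (SE 0.43), 2.91 (SE 0.56) and 2.22 (SE 0.52) for *Tet1*-/-, DKO and TKO and adjusted p-values of 1.82e-05, 0.000273 and 0.00165 (edgeR). In WT clones its D6 level was 317% to 1114% of the D0 level of the same clone, and in *Tet2*-/- clones 116% and 122%. Every WT, *Tet1*-/-, DKO and TKO clone with both days had a higher level at D6.

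*Nrbp2* rose in *Tet1*-/- (2.68, SE 0.44, adjusted p = 3.70e-05, edgeR) and DKO (2.26, SE 0.52, adjusted p = 0.00132), and its change in TKO was -0.04 (SE 0.48, adjusted p = 0.953). The TKO clones moved in opposite directions, replicate 1 from 4.60 to 2.46 CPM and replicate 2 from 0.989 to 3.00 CPM. In a comparison chosen after the data were seen, the change over the days in TKO differed from that in *Tet1*-/- by -2.72 (SE 0.65, adjusted p = 0.0311, edgeR), a difference called lower in 0.786% of all genes. With clone as a block the difference was -2.2 (adjusted p = 0.137), and without TKO replicate 1 at D0 it was -1.24 (adjusted p = 0.218). The call was also lost without *Tet1*-/- replicate 2 or 3 at D0, TKO replicate 1 or 2 at D6 or *Tet1*-/- replicate 2 at D6, with differences of -2.86 to -2.52 and adjusted p-values of 0.0555 to 0.0873. For DKO against *Tet1*-/- and TKO against DKO no member was called for its change over the days (smallest adjusted p = 1.00 and 0.240, edgeR) and DESeq2 called none. In these comparisons 0 and 1 members (*Nrbp2*) had an unadjusted p-value under 0.05, and of all genes 0% were called for the former and 0.0192% higher and 0.0128% lower for the latter. *Nrbp2* in *Tet2*-/- stood at 112% of its D0 level in both clones, and in WT at 656% to 934%.

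*Msc* fell in all 3 tested genotypes. For *Tet1*-/-, DKO and TKO its log2 fold changes were -3.85 (SE 0.49), -4.79 (SE 0.63) and -5.06 (SE 0.64), with adjusted p-values of 2.27e-06, 5.34e-06 and 5.26e-06 (edgeR). The D6 mean was 6.90%, 3.63% and 2.78% of the D0 mean in these genotypes, 1.90% in WT and 22.1% in *Tet2*-/-. No clone outside *Tet2*-/- kept as large a share as the lower *Tet2*-/- clone, which kept 20.0%, and *Tet1*-/- replicate 3 came next with 10.5%. The *Tet2*-/- and WT shares use the D6 values that picked *Msc* and are a description only.

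*Tcerg1l* fell in DKO (-1.61, SE 0.58, adjusted p = 0.0240, edgeR) and TKO (-2.46, SE 0.65, adjusted p = 0.00408), while in *Tet1*-/- its change was -0.97 (SE 0.44, adjusted p = 0.0603). The DKO call was lost without DKO replicate 2 at D0 (-1.36, adjusted p = 0.129), replicate 2 at D6 (-1.44, adjusted p = 0.116) or replicate 1 at D6 (-1.82, adjusted p = 0.0686). In TKO replicate 2 it ended at 0.0999 CPM, from 2 reads. In WT clones the D6 level was 13.9% to 41.0% of the D0 level, and in *Tet2*-/- clones it was 224% and 201%. *Tet1*-/- replicate 3 stood at 130% and replicate 1 at 22.9%, so *Tet1*-/- clones moved in opposite directions.

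*Kcnc2* and *Cped1* were not called over the days in any tested genotype. The log2 fold changes of *Kcnc2* were 0.86 (SE 0.46, adjusted p = 0.113, edgeR), 0.30 and -0.23 for *Tet1*-/-, DKO and TKO. In the *Tet2*-/- clones its D6 level was 246% and 159% of D0, and in WT clones 138% to 252%, ranges that overlap. Those of *Cped1* were -0.27, -0.41 and -1.58 in the same order (smallest adjusted p = 0.0946, edgeR, in TKO). Its D6 level was 5.0% to 35.3% of D0 in WT clones and 325% and 328% in the *Tet2*-/- clones. In *Tet1*-/- it was 41.7% in replicate 1 and 134% in replicate 3. Over the days, calls covered much of the genome: of all genes 19.9%, 18.6% and 16.8% were called higher and 11.2%, 10.6% and 8.63% lower in *Tet1*-/-, DKO and TKO, beside 2, 2 and 1 of the 6 members higher and 1, 2 and 2 lower. In WT 20.7% and 13.3% of all genes were called higher and lower, and in *Tet2*-/- 12.7% and 6.44%.

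*Tet1*-/- replicate 3 was the highest library outside *Tet2*-/- for 4 genes at D6, with 1.42 CPM of *Cped1*, 5.75 of *Msc*, 1.83 of *Tcerg1l* and 2.43 of *Kcnc2*. The other *Tet1*-/- clones had 0.232 and 0.286, 2.82 and 1.04, 0.464 and 0.393, and 1.74 and 1.11 CPM of these genes. This clone thus stood between its own group and *Tet2*-/- for the 3 D6 genes.

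**Figure D4:**
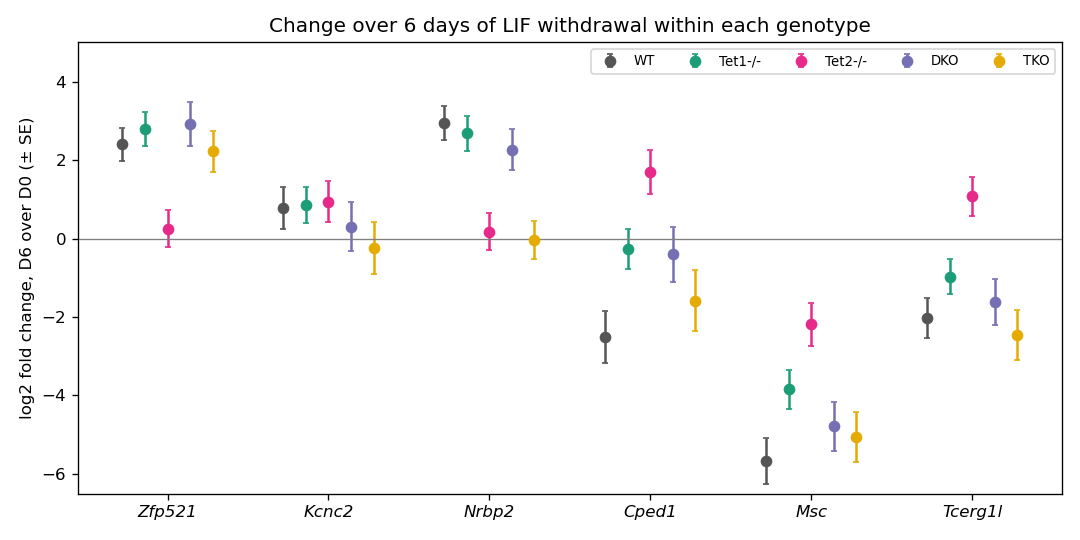
Log2 fold change of D6 over D0 with SE within each genotype. *Msc* lies below 0 in every genotype, *Zfp521* lies above 2 in WT, *Tet1*-/-, DKO and TKO, and *Cped1* and *Tcerg1l* of *Tet2*-/- (pink) lie above 0 while the other genotypes lie below.

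Relatives of the 6 genes were read for *Tet2*-/- against WT from lists of partners and paralogs. Counted with them are 7 myogenic factors and 11 neuroectoderm genes, which are not partners or paralogs. Of the D6 calls, 4 higher ones are from the neuroectoderm list and 1 lower one is from the myogenic list. At D0 none of the 49 tested relatives was called by edgeR or DESeq2, and 12 had an unadjusted p-value under 0.05, as did 4218 of all 14456 genes, of which 0.816% were called higher and 2.37% lower. At D6 12 were called higher and 11 lower of 68 tested (of 87 in the lists), with a median log2 fold change of -0.01 beside -0.03 over all genes, of which 4.81% were called higher and 9.45% lower. These calls fell to 2 without *Tet2*-/- replicate 1 and to 0 without replicate 2.

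Among partners of Zfp521, *Ebf1* was called higher at D6 (1.83, SE 0.44, adjusted p = 0.0145, edgeR), at 5.17 ± 2.38 CPM (SD, n = 2) in *Tet2*-/- and 1.42 ± 0.447 (n = 3) in WT, and *Ebf4* was called lower (-2.18, adjusted p = 0.00983). *Zfp423*, the closest relative of *Zfp521*, had 54.2 ± 6.33 and 29.2 ± 5.91 CPM, a change of 0.87 (adjusted p = 0.0139) under 2-fold. Of the neuroectoderm list, 4 of 10 tested genes were called higher and none lower, beside 4.81% and 9.45% of all genes: *Sox1* (2.39), *Pax6* (2.84), *Pou3f1* (1.23) and *Hes5* (1.74), transcription factors of early neural cells. *Sox1* had 8.18 ± 1.26 CPM in *Tet2*-/- and 1.55 ± 0.322 in WT at D6, and 7.40 ± 2.26 and 4.08 ± 1.12 CPM at D0. *Nes*, *Otx2* and *Zic2* of the same list had log2 fold changes of -0.49, -0.47 and -0.28 and were not called.

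Calls among voltage-gated potassium channels went in both directions. Of 30 tested at D6, 6 were called higher, among them *Kcna3*, *Kcng1*, *Kcng4*, *Kcnh2* and *Kcnh3*, and 6 lower, among them *Kcna5*, *Kcna6*, *Kcnc1*, *Kcnd1* and *Kcnd3*, beside 4.81% and 9.45% of all genes. Within the Kv3 subfamily *Kcnc1* (Kv3.1) ran opposite to *Kcnc2*, with 0.0841 ± 0.0783 CPM in *Tet2*-/- and 1.55 ± 0.833 CPM in WT (-4.21, SE 1.12, adjusted p = 0.0204, edgeR). The *Tet2*-/- value rests on 5 reads over both clones. *Kcnc4* had 0.267 ± 0.214 and 0.619 ± 0.173 CPM and was not called. *Kcnd3* had 0 counts in both *Tet2*-/- libraries and 0.765 ± 0.351 CPM in WT.

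Among bHLH relatives of *Msc*, the somite factor *Tcf15* was called higher at D6 (49.7 ± 7.85 CPM in *Tet2*-/- and 9.63 ± 6.15 in WT, log2 fold change 2.34, adjusted p = 0.0105, edgeR). At D0 *Tcf15* had 69.6 to 84.2 CPM in *Tet2*-/- and 71.8 to 86.1 CPM in WT and was not called. Its level was thus lower at D6 than at D0 in both groups, and it fell less in *Tet2*-/-. The mesodermal factors *Twist2* (-3.08), *Hand1* and *Hand2* were called lower at D6. *Hand1* had 0.796 ± 0.107 CPM in *Tet2*-/- and 127 ± 90.9 CPM in WT, and *Hand2* had 0 counts in both *Tet2*-/- libraries and 6.28 ± 4.44 CPM in WT. None of the 7 E proteins and Id proteins was called, and of the 4 tested genes of the myogenic list *Pax7*, a paired box factor of muscle progenitors, was called lower (-3.90, adjusted p = 0.00616). *Myod1*, the 1 myogenic bHLH factor tested, had a log2 fold change of 2.27 (SE 1.04, adjusted p = 0.120, edgeR) and was not called, nor were *Pax3* (-2.04) and *Mef2c* (-0.64). None of 4 paralogs of Nrbp2 and Tcerg1l was called. *Nrbp1* changed by -0.51 (adjusted p = 0.0453).

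**Figure D5:**
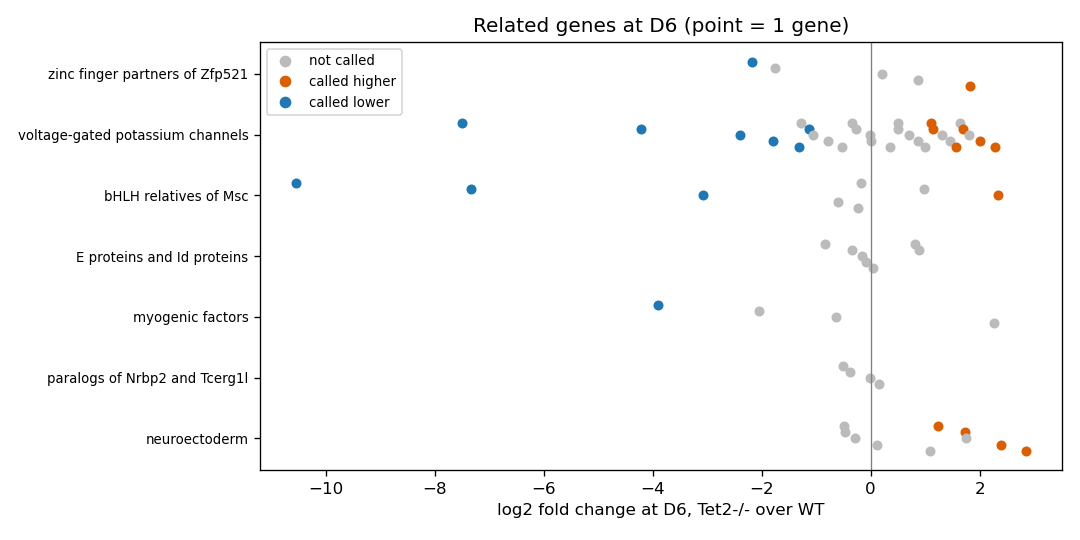
Log2 fold change of *Tet2*-/- over WT at D6 for each tested relative, by list; orange points were called higher, blue points lower and grey points not called. The potassium channels hold 6 calls in each direction, and the 4 calls of the neuroectoderm list are all higher. *Kcnd3* and *Hand2*, the lowest points of their lists, have 0 counts in both *Tet2*-/- libraries, so that their positions depend on the prior count of the fit.

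Neighbouring genes were read to see whether genes beside a member also differed between *Tet2*-/- and WT. Of the 5 genes on each side of each member in RefSeq (60 in all), 17 are in the count tables. At D0 none of the 9 tested was called by edgeR or DESeq2, beside 0.816% of all genes called higher and 2.37% lower, and 4 had an unadjusted p-value under 0.05, beside 4218 of 14456 genes. At D6, 3 of 11 were called higher and none lower, beside 4.81% and 9.45% of all genes. *Ing3*, which encodes a chromatin reader and lies next to *Cped1*, had 59.3 to 61.5 CPM in *Tet2*-/- and 26.3 to 34.3 in WT (1.00, SE 0.27, adjusted p = 0.0227, edgeR). *Fam3c*, which encodes a secreted factor and lies beyond *Wnt16* on the other side, had 139 ± 15.6 and 64.5 ± 9.32 CPM (1.09, SE 0.24, adjusted p = 0.0112). *Wnt16* itself had 0.672 ± 0.381 and 0.287 ± 0.129 CPM and was not called (1.17, SE 0.66, adjusted p = 0.197). *Trpa1*, a cation channel gene near *Msc*, had 6.22 ± 0.165 and 2.49 ± 0.545 CPM (1.29, SE 0.44, adjusted p = 0.0467, edgeR). From D0 to D6 mean *Ing3* went from 61.7 to 60.4 CPM in *Tet2*-/- and from 54.0 to 29.8 CPM in WT. Mean *Trpa1* fell from 11.3 to 6.22 CPM in *Tet2*-/- and from 15.2 to 2.49 CPM in WT. Mean *Fam3c* went from 87.3 to 139 CPM in *Tet2*-/- and from 66.0 to 64.5 CPM in WT. The other knockouts had similar mean levels of *Trpa1* at D6, with 6.46 ± 3.01 CPM in *Tet1*-/- (n = 3), 5.33 ± 1.66 in DKO (n = 2) and 6.02 ± 3.58 in TKO (n = 2), whereas both *Tet2*-/- clones lay above every other D6 library for *Ing3* and *Fam3c*. Without *Tet2*-/- replicate 1 or 2 at D6 0 neighbours were called, and without WT replicate 2 or 3 at D6, or with library totals as scaling, 1 was called.

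Genes whose pattern over the 24 libraries was most like each member were found by Pearson's r of log2 CPM, as a description in which the points share genotype, day and clone. *Zfp521* was closest to *Wiz* (0.93), *Marcks* and *Zfp687*, *Kcnc2* to *Bend3* (0.86), *Gpr161* and *Chchd7*, and *Nrbp2* to *Palm* (0.96), *Mgrn1* and *Arhgef2*. *Msc* was closest to *Park7* (0.98), *Rpp25* and *Rrp12*, and *Tcerg1l* to *Pdzd4* (0.93), *Agtpbp1* and *Tor3a*. The gene closest to *Cped1* among 15638 was *Tcerg1l* (0.90), and both were picked by the same contrast. Between members r ran from -0.70 (*Nrbp2* and *Msc*) to 0.90, and *Zfp521* and *Nrbp2* had 0.81.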

How the data were processed

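Poly(A) RNA of 24 clone libraries was sequenced with paired ends. The authors aligned the reads to mm9 with STAR 2.5.1 and deposited raw read counts per gene line, in a table whose name points to featureCounts; the strand setting is not given in the sources used here. The members and gene lists were chosen with earlier results of these data known.

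The 31928 lines hold 22926 symbols, and for the 4911 symbols with several lines the first was used (each of the 6 members has 1 line). No sample column was left unused. Genes were filtered with filterByExpr (minimum count 10), scaled by TMM (factors 0.918 to 1.10) and fitted over all 5 genotypes with edgeR 4.0.16 (limma 3.58.1, R 4.3.3) by the quasi-likelihood test with Benjamini-Hochberg adjustment, separately for D0 and D6 and in 1 fit over both days. Calls needed an adjusted p-value under 0.05 and a change over 2-fold. A prior count of 2 was used for log2 CPM in correlations. DESeq2 1.42.0 was an alternative. The tests were also run on simulated data, whose outcome is not reported here. Spike-in scaling could not be repeated, as 0 ERCC lines are in the table.

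Named genes were the 6 members, genes of the lists and neighbours that were called or serve as examples, the genes ranked around the members, and for each member the 3 genes with the highest r. Fits over both days could be paired by clone, since the labels name the same cell line at both days; deviations of the same clone correlated with r of 0.0613 to 0.164 (median 0.0891, 11 pairs, 5 over 0.1). The label of 1 DKO clone at D6 lacks the decimal point of its D0 label and was read as the same clone. Results of some genes are not reported here.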

Additional observations from a re-analysis of the deposited data

Results flagged for a closer look

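The change of *Nrbp2* from D0 to D6 differed between TKO and *Tet1*-/- by -2.72 on the log2 scale (edgeR, adjusted p = 0.0311). It was singled out by that test of the difference between groups. The call was lost with clone as a block (-2.2, adjusted p = 0.137), with only the groups compared in the fit (adjusted p = 0.194) and without TKO replicate 1 at D0 (-1.24, adjusted p = 0.218), all by edgeR.

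*Cped1* and *Tcerg1l* moved in opposite directions in *Tet2*-/- and WT clones over the 6 days. Every *Tet2*-/- clone ended above its D0 level, the lower one at 325% for *Cped1* and 201% for *Tcerg1l*, and every WT clone ended below its own. These differences were not tested, since they use libraries that chose the genes. Groups held 2 or 3 clones, and single clones were not tested for standing apart from their group.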

How the results depend on the processing

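No result reversed under any setting. DKO against *Tet1*-/- gave 0 calls under all 32 settings, and the 10 calls over the days within *Tet1*-/-, DKO and TKO ranged from 9 to 13. Leaving out each clone in turn moved the count from 1 to between 0 and 2 for *Tet2*-/- against WT on the unused day, for the other knockouts against WT and for TKO against *Tet1*-/-. It gave 0 to 1 for TKO against DKO (0 with all clones), 0 to 5 for DKO and TKO against *Tet2*-/- (3), 0 to 28 for relatives (23), 0 to 3 for neighbours (3) and 0 to 1 for the change over the days in TKO against *Tet1*-/- (1). The 2 calls of the other knockouts against WT came without WT replicate 1 at D6, and 0 without WT replicate 2 at D0. With 1 clone left in an arm, that clone is assumed to vary like those of other groups.

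DESeq2 gave 2 calls for the other knockouts against WT. With only the groups compared in the fit, the counts were 0 for those knockouts, for TKO against *Tet1*-/- and for the difference between them over the days, and *Tcerg1l* over the days in TKO was no longer called (-2.46, adjusted p = 0.0541, edgeR). Scaling by library totals left 1 neighbour called.

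With clone as a replicate block, the *Nrbp2* difference over the days between TKO and *Tet1*-/- gave 0 calls. Replicate numbers in the labels did not pair the clones within a day (median r of same-numbered clones 0.0791 at D0 and -0.0544 at D6, 21 pairs each), and a block on them moved no count by over 1.5 times.

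Limits are the few clones per group, from 1 parental line, and counts of 1 to 6 reads for *Cped1* and *Tcerg1l* in some D6 libraries.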
